A study of Mus musculus with 16 samples.

Results

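Lrp2, Apold1, Cdc42ep2, Snrk, Chst2, Ahdc1 and Slfn3 are 7 of the 55414 genes counted in mouse lung endothelial cells (MLECs) with and without endoglin (ENG). They were chosen by the difference of their counts between ligand-treated KO cells and ligand-treated Ctrl cells, so that difference is given below as a description and not as a test. All 7 were among the 15693 genes kept after the filter on low counts, Lrp2 only through the 4 libraries of 1 isolation. The question followed for each gene was how much of its difference after ligand was already there in PBS, and how much arose from a different response to the ligand. Because the difference after ligand also chose the genes, it may be overstated, which would make the share there in PBS too small. No error was estimated for these shares, so they are not exact. They are roughest where the interval of the PBS difference includes no difference, as for Cdc42ep2, Apold1, Chst2 and Ahdc1.

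MLECs came from 4 independent isolations from mice with floxed Eng alleles (Eng fl/fl), a Rosa26-CRE transgene (CreERT2, which 4-OH-tamoxifen activates in any cell of the culture, not in endothelium alone) and the Immorto transgene, and each isolation was kept as 1 line. Vehicle-treated cells were the control (Ctrl) and 4-OH-tamoxifen-treated cells were the Eng knockout (KO), so deletion and 4-OH-tamoxifen exposure cannot be told apart. Ctrl cells received PBS or sENG(M):BMP9, the BMP9 growth factor domain held by soluble endoglin, and KO cells received PBS or pro:BMP9, the domain with its prodomain, both at 0.2 ng/ml of growth factor domain for 90 min after serum starvation. This gave 4 groups of 4 libraries, 1 from each isolation, and because the ligand form changed with the genotype, their parts in a difference after ligand cannot be told apart. All cells had been grown with 20 U/ml interferon-γ, which keeps the Immorto transgene active, and 1 µM SB431542, an inhibitor of TGF-β type I receptors, and the methods for MLEC culture leave both, and 4-OH-tamoxifen, out of the medium for a day before serum starvation.

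BMP9 is a circulating ligand that endothelial cells bind through the type I receptor ALK1 and a type II receptor, with endoglin as co-receptor. The receptors phosphorylate Smad proteins, which enter the nucleus and switch on genes such as the Id family, while many other endothelial genes fall. The 7 genes have unrelated products: an endocytic receptor (Lrp2), an endothelial early-response protein (Apold1), a partner of the CDC42 GTPase (Cdc42ep2), a kinase (Snrk), an enzyme that sulfates sugar chains (Chst2), a nuclear protein with AT-hook DNA-binding motifs (Ahdc1) and a member of the Schlafen family (Slfn3).

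The libraries held 14869115 to 17242117 counts, and their groups matched the knockout. Eng itself had 6253 to 9039 counts in Ctrl PBS and 632 to 1017 in KO PBS, and 9023 to 11585 in Ctrl cells and 1667 to 2063 in KO cells after ligand. All 12 endothelial markers passed the filter, with a summed level of 3595 to 7882 CPM (counts scaled to library size) per library. Lung epithelial markers summed to 12.3 to 19.0 CPM with Sftpc and Sftpa1 at 0. The 11 fibroblast and mural markers were lower in KO cells of every isolation when summed, from 111 to 816 CPM in Ctrl PBS and from 108 to 725 CPM in KO PBS. In isolation 2 the gap was small, 111 against 108 CPM in PBS, with 5 of 11 markers lower in KO cells. At an adjusted p under 0.05 in the edgeR test given below, Dcn was lower in KO cells in PBS (−0.61, log2) and after ligand (−0.61), and Pdgfrb after ligand (−0.29). The part of these markers in the differences below was not tested. In bulk RNA, fewer cells of one kind and less RNA per cell cannot be told apart.

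The DNA just before the outermost annotated start is shown for the genes that, of the 7, fell most and rose most after ligand, Cdc42ep2 and Chst2, as 250 bases on the gene's strand (GRCm39). Capitals mark GGGCGG or its reverse complement, the core of the GC box.
Cdc42ep2, chr19:5974852-5975101 (minus strand): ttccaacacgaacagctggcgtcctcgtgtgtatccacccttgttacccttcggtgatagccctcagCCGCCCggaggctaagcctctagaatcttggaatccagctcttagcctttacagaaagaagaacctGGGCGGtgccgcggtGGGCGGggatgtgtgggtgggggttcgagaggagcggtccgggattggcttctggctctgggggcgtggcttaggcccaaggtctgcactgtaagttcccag
Chst2, chr9:95289833-95290082 (minus strand): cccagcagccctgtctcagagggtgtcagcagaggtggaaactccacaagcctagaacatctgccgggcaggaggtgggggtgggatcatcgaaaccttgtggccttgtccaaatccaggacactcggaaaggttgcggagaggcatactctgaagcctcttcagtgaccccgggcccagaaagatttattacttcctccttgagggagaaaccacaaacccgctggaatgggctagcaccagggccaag
The Cdc42ep2 window held 3 matches and the Chst2 window 0. Of the other windows, Snrk held 3, Lrp2 held 2, Ahdc1 held 1 and Apold1 and Slfn3 held 0. On both strands, 29.9% of the 21757 windows of the same length before protein-coding genes hold this motif. The Smad motif GGCGCC was in no window of the 7 genes (7.85% of all windows), GGAGCC was in the Lrp2 window alone (23.4%), and the core of the interferon-stimulated response element was in none (3.44%). These are letter matches in 1 window per gene, and binding was not measured.

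Between KO and Ctrl cells in PBS, 0 of the 7 genes passed an adjusted p of 0.05 (edgeR's quasi-likelihood F-test, blocked by isolation, Benjamini-Hochberg over all tested genes), where 0.0191% of all genes did. At an unadjusted p under 0.05, 3 of the 7 genes (Lrp2, Slfn3 and Snrk) and 1071 of all 15693 genes would pass. Each gene's spread was estimated partly from the ligand libraries that chose the genes, so this count is no independent test. Lrp2 also rests mostly on 1 isolation. In the response to ligand averaged over both genotypes, 6 of the 7 passed, 2 up and 4 down, beside 13.1% of all genes (7.46% up and 5.65% down). This contrast is orthogonal to the one that chose the genes, but it uses the same ligand libraries and the same estimate of each gene's spread. A low spread helps a gene both to be chosen and to pass, so the 6 of 7 is no independent test. Cdc42ep2, Snrk, Apold1 and Slfn3 fell after ligand, Chst2 and Ahdc1 rose, and Lrp2 did not pass. With no block for the isolation, Cdc42ep2 alone of the 6 kept its call. After ligand all 7 differed, as the choice requires, with 4 higher and 3 lower in KO cells (0.255% of all genes passed in that comparison, 0.0892% higher and 0.166% lower).

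**Figure D1:**
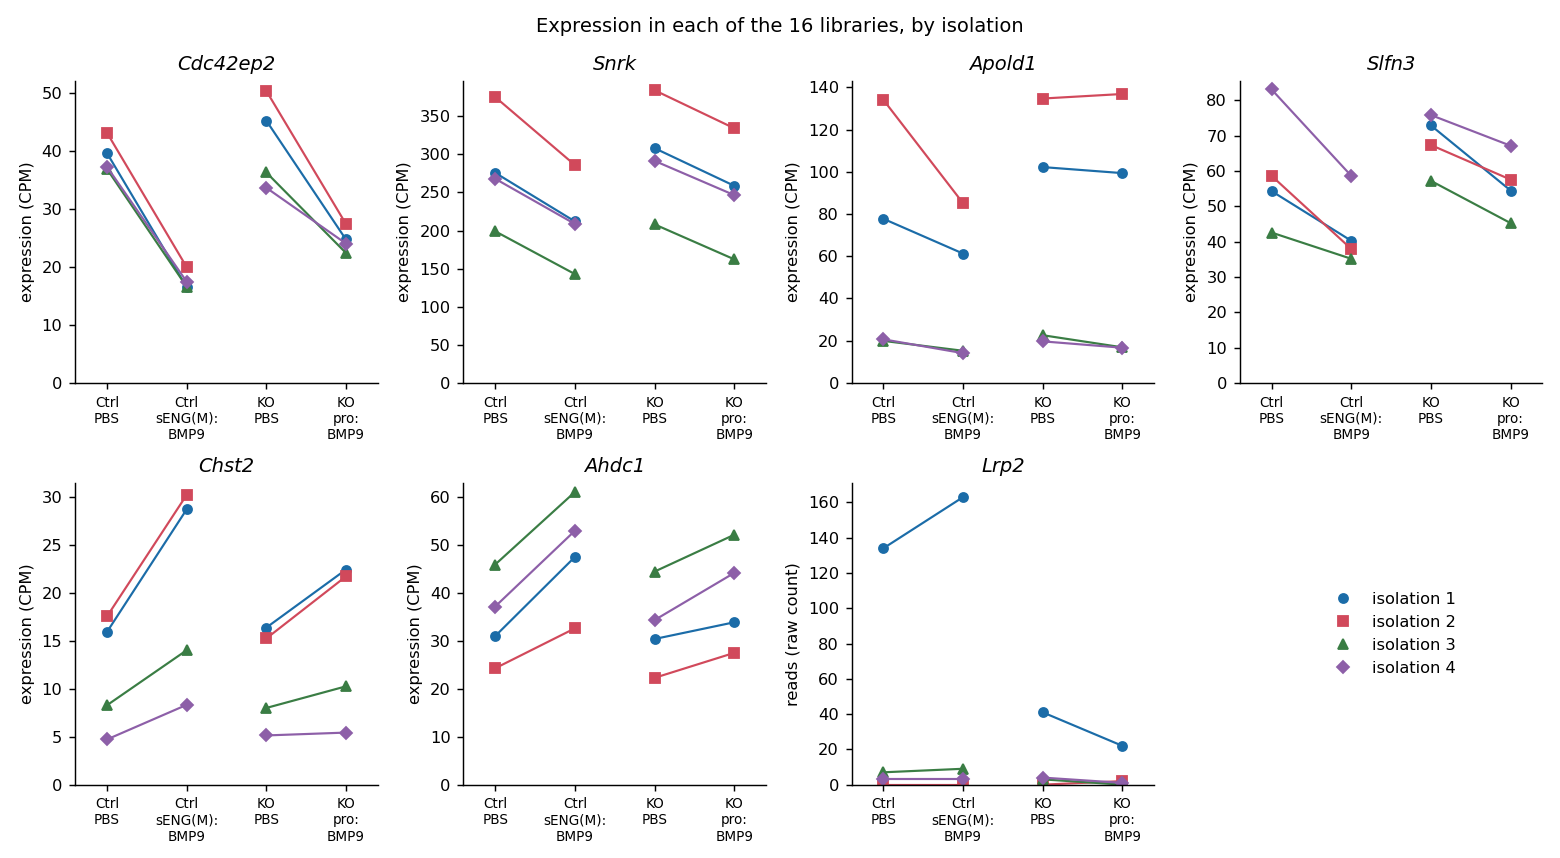
Expression of the 7 genes in each of the 16 libraries, in CPM for 6 genes and as raw counts for Lrp2, with the 4 groups along the horizontal axis; each point is 1 library and lines join the PBS and ligand libraries of 1 isolation. Cdc42ep2 fell in all 8 pairs, and 4 Lrp2 libraries, all of isolation 1, stand above the other 12.

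Cdc42ep2 encodes a CDC42 effector that links this GTPase to the actin and septin skeleton (ENSMUSG00000045664, GRCm39 chr19:5965664-5974844, minus strand, 2 exons). It fell most of the 7 genes. In Ctrl PBS the 4 isolations, in order, had 39.6, 43.1, 36.8 and 37.2 CPM, and after sENG(M):BMP9 they had 16.5, 20.0, 16.6 and 17.4 CPM. KO cells had 45.2, 50.3, 36.3 and 33.6 CPM in PBS and 24.7, 27.4, 22.4 and 24.0 CPM after pro:BMP9. The ligand groups did not overlap the PBS groups in either genotype, and every KO library after ligand lay above every Ctrl library after ligand. Of all genes, 1.5% fell without overlap in Ctrl cells and 0.848% fell without overlap in KO cells. After ligand, 0.382% were higher without overlap in KO than in Ctrl cells. That last comparison chose the gene, so the missing overlap there is a description and not a test.

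On the log2 scale, Cdc42ep2 fell on average by 0.95 (SE 0.0495, adjusted p = 8.25e-11, lower in 4 of 4 isolations), which left 51.9% of the PBS level. The fall was −1.15 (SE 0.0712) in Ctrl cells and −0.74 (SE 0.0689) in KO cells, so the KO response was 64.1% of the Ctrl response on this scale. In PBS the KO and Ctrl groups overlapped and the difference was 0.07 (SE 0.0658, 95% interval −0.07 to 0.21, adjusted p = 0.903), with 2 isolations higher and 2 lower. After ligand the KO cells were 0.48 higher (SE 0.0743), with 0.58, 0.45, 0.43 and 0.46 in isolations 1 to 4. In the fitted values the PBS difference made up 13.9% of the difference after ligand, a rough share given the PBS interval. The remainder was the difference of responses, 0.41 (SE 0.0993), positive in 4 of 4 isolations.

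The other CDC42 effectors and septins moved in both directions with the ligand. Of 17 tested, 6 rose and 2 fell in the average response, with a median of 0.04 beside −0.003055 over all genes. The paralogue Cdc42ep4 rose by 0.89 (SE 0.0406, adjusted p = 1.3e-11) and Cdc42ep1 by 0.41 (SE 0.0421, adjusted p = 9.31e-07), while Cdc42ep3 fell by 0.44 (SE 0.0522, adjusted p = 5e-06) and Cdc42ep5 had −0.13 (SE 0.0476, adjusted p = 0.0981). None of the 17 passed between genotypes in PBS. After ligand 1 of them passed, Rhoq, a CDC42-related GTPase, at −0.28 in KO cells (SE 0.0527, adjusted p = 0.0286), and Cdc42ep1, Cdc42ep3 and Cdc42ep4 had −0.06 (SE 0.0587), 0.15 (SE 0.0761) and −0.07 (SE 0.0555).

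Snrk encodes a kinase of the AMPK-related family, which the kinase Stk11 activates (ENSMUSG00000038145, chr9:121946332-121998768, plus strand, 6 exons). Ctrl cells had 276, 375, 199 and 268 CPM in PBS and 212, 286, 143 and 209 CPM after ligand, and KO cells had 308, 384, 208 and 292 CPM in PBS and 259, 334, 162 and 247 CPM after ligand. The groups overlapped in every comparison because isolation 2 was high and isolation 3 low throughout, yet each isolation fell in each genotype. Per kb of gene model, Snrk had the highest level of the 7 genes.

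The average fall of Snrk was 0.33 on the log2 scale (log2 change −0.33, SE 0.0254, adjusted p = 1.64e-08, lower in 4 of 4 isolations), −0.40 (SE 0.0360) in Ctrl and −0.26 (SE 0.0359) in KO cells. KO cells were 0.09 higher in PBS (SE 0.0357, 95% interval 0.02 to 0.17, adjusted p = 0.606), a small difference with the same sign in 4 of 4 isolations that did not pass the test over all genes. After ligand they were 0.24 higher (SE 0.0361), so 40.3% of that difference was there in PBS. The difference of responses, 0.14 (SE 0.0508), was positive in 4 of 4 isolations, from 0.12 to 0.19. Gm68983 overlaps Snrk exons on the opposite strand. The library kit kept strand, but whether the counting used it is not given in the sources used here, so the reads of the pair may be shared. Of the 75-base windows of the Snrk transcript, 3.27% occur in transcripts of other genes, most of them in Gm66695.

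Of 18 other AMPK-related kinases and their activators, 6 rose and 0 fell in the average response, so Snrk moved against the members of this list that passed. Nuak1 rose by 1.76 (SE 0.0466, adjusted p = 3.87e-15), Sik1 by 0.41 (SE 0.0365, adjusted p = 1.34e-07), Mark4 by 0.31 (SE 0.0304, adjusted p = 4.83e-07) and Prkaa1, a catalytic AMPK subunit, by 0.13 (SE 0.0267, adjusted p = 0.00244). Between genotypes none passed in PBS, and after ligand Nuak1 alone passed, at −0.34 (SE 0.0592, adjusted p = 0.0202).

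Apold1 encodes a protein with an apolipoprotein L domain that endothelial cells make as an early response to stimuli (ENSMUSG00000090698, chr6:134958681-134963799, plus strand, 2 exons). Its level depended first on the isolation: the 4 libraries of isolation 1 averaged 85.1 CPM and those of isolation 2 averaged 123 CPM, against 18.7 and 17.8 CPM in isolations 3 and 4, a 6.90-fold range. Ctrl cells had 77.7, 134, 19.9 and 20.7 CPM in PBS and 61.3, 85.1, 15.2 and 14.1 CPM after ligand. KO cells had 102, 135, 22.6 and 19.7 CPM in PBS and 99.4, 137, 16.9 and 16.7 CPM after ligand. Ctrl cells fell in all 4 isolations, whereas KO cells of the first pair of isolations, which had the high levels, stayed close to their PBS values.

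On the log2 scale, the average response of Apold1 was −0.31 (SE 0.0607, adjusted p = 0.00127, lower in 4 of 4 isolations). Ctrl cells fell by 0.50 (SE 0.0874), and KO cells had −0.12 (SE 0.0842), with −0.04, 0.02, −0.42 and −0.24 in isolations 1 to 4. The KO response was 24.0% of the Ctrl response, the smallest share of the 6 genes that passed. In PBS the difference between genotypes was 0.14 (SE 0.0844, 95% interval −0.04 to 0.32, adjusted p = 0.798), higher in 3 of 4 isolations. After ligand it was 0.52 (SE 0.0873), with 0.70 and 0.68 in isolations 1 and 2 and 0.15 and 0.24 in isolations 3 and 4. Of the difference after ligand, 27.0% was there in PBS, and the difference of responses was 0.38 (SE 0.121), positive in 3 of 4 isolations and −0.04 in isolation 3. Of 13 other listed apolipoprotein L genes 7 could be tested, and none passed in the PBS, average response or after-ligand comparison.

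**Figure D2:**
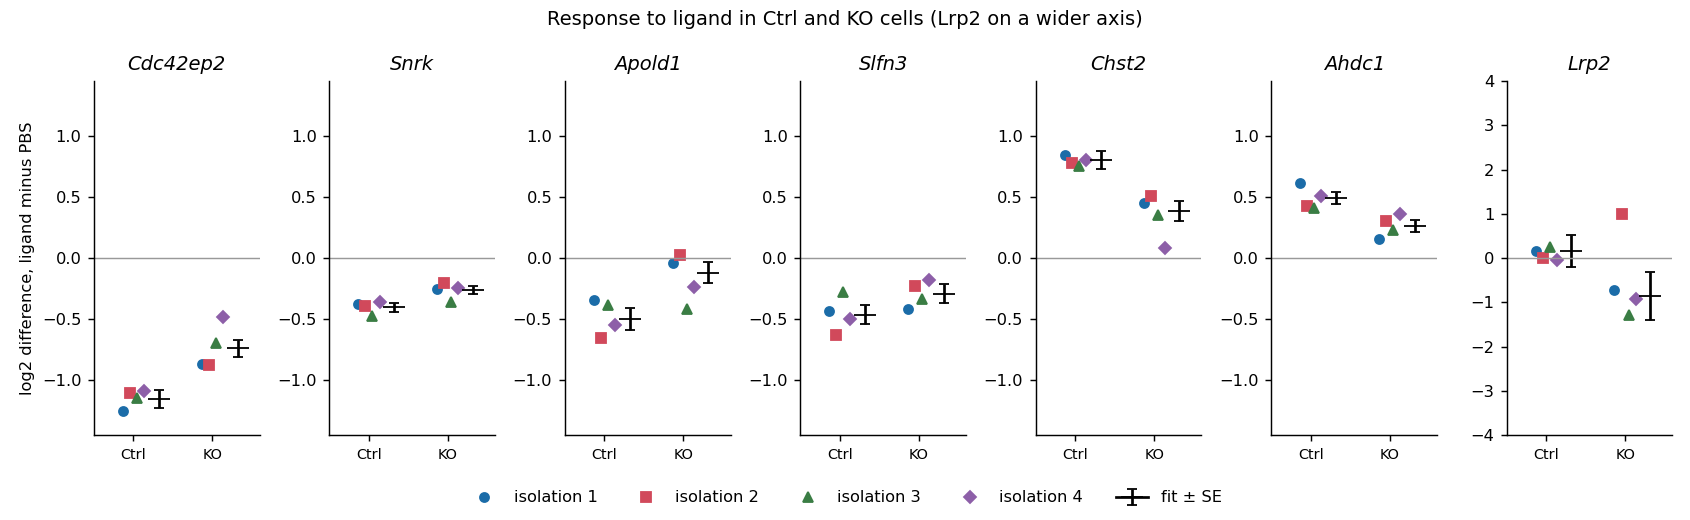
Log2 difference between ligand and PBS for each gene in Ctrl and KO cells; coloured points are the 4 isolations (prior count 2) and black bars the fitted value ± SE, with a wider axis for Lrp2. For 6 genes the fitted KO response lies nearer 0 than the Ctrl response, from −0.12 against −0.50 for Apold1 to −0.74 against −1.15 for Cdc42ep2.

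Slfn3 is a Schlafen gene, of a family that interferons induce in mouse cells (ENSMUSG00000018986, chr11:83082156-83105980, plus strand, 4 exons). Ctrl cells had 54.3, 58.6, 42.5 and 83.0 CPM in PBS and 40.2, 37.9, 35.1 and 58.6 CPM after ligand. KO cells had 72.8, 67.3, 57.2 and 75.8 CPM in PBS and 54.4, 57.5, 45.2 and 67.1 CPM after ligand. Each isolation fell in each genotype, and the groups overlapped in every comparison.

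The average response of Slfn3 was −0.38 (SE 0.0544, adjusted p = 4.96e-05, lower in 4 of 4 isolations), with −0.46 (SE 0.0778) in Ctrl and −0.29 (SE 0.0761) in KO cells. Its PBS difference between genotypes was the largest among the 6 responding genes, 0.22 (SE 0.0756, 95% interval 0.06 to 0.38, adjusted p = 0.528), and split by isolation: 0.42, 0.20 and 0.43 in isolations 1 to 3 and −0.13 in isolation 4. Without isolation 4 it passed, at 0.35 (adjusted p = 0.0176), and without isolation 1, 2 or 3 it did not pass. Over all alternative fits the value ran from 0.15 to 0.35. After ligand the KO cells were 0.39 higher (SE 0.0784), higher in 4 of 4 isolations, and 56.5% of that was there in PBS. The difference of responses was 0.17 (SE 0.109), with 0.01, 0.40, −0.06 and 0.33 in isolations 1 to 4. Of the 75-base windows of the Slfn3 transcript, 3.38% occur in transcripts of other genes, most of them in ENSMUSG00000121399, an annotated lncRNA, so part of its reads may be shared.

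The rest of the Schlafen family and the interferon-stimulated genes leaned the same way as Slfn3. Over all tested genes the median KO minus Ctrl value was −0.0008875 in PBS and 0.0007227 after ligand. Genes of 1 list were measured in the same 4 isolations and are not independent of each other. All 6 other tested Schlafen genes had positive KO minus Ctrl values in PBS (median 0.20) and after ligand (median 0.34), and none passed in either. In the average response 3 of them fell, Slfn2 by 0.31 (SE 0.0689, adjusted p = 0.00375), Slfn4 by 0.50 (SE 0.163, adjusted p = 0.0492) and Slfn10-ps by 0.24 (SE 0.0524, adjusted p = 0.00363). These 3 calls became 0 with no block, 1 without isolation 1 and 2 without any other isolation or with DESeq2. Of 29 interferon-stimulated genes, 28 had positive KO minus Ctrl values in PBS (median 0.37, none passed) and 28 after ligand (median 0.50), where 1 passed, Bst2, an antiviral membrane protein, at 0.36. That 1 call became 0 with at least 10 counts in every library, 5 with DESeq2, 26 with no filter and 25 with quantile normalisation, ComBat and DESeq2. By isolation, the median of these 29 genes in PBS was 0.77, 0.56 and 0.50 in isolations 1 to 3 and −0.23 in isolation 4, the isolation in which Slfn3 was also lower in KO cells. After ligand the medians were 0.71, 0.95, 0.62 and 0.04. With isolation 4 left out, 23 of the 29 genes passed as higher in KO cells in PBS and 25 after ligand, and of the 6 Schlafen genes 2 and 3 did, beside 69 and 175 calls over all genes. With isolation 1, 2 or 3 left out, or with no block, 0 genes of either list passed in either comparison. The part of the interferon-stimulated genes' difference in that of Slfn3 was not tested.

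Chst2 encodes a sulfotransferase that adds sulfate to N-acetylglucosamine on glycans, among them the L-selectin ligands of lymph node endothelium (ENSMUSG00000033350, chr9:95281345-95288775, minus strand, 2 exons). Ctrl cells had 15.9, 17.5, 8.28 and 4.71 CPM in PBS and 28.7, 30.2, 14.0 and 8.32 CPM after ligand, a rise in every isolation. KO cells had 16.4, 15.2, 8.0 and 5.13 CPM in PBS and 22.4, 21.7, 10.3 and 5.43 CPM after ligand. Isolations 1 and 2 were high and isolation 4 low in all groups, so the groups overlapped, but within each isolation the KO library after ligand was below its Ctrl partner.

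The average rise of Chst2 was 0.60 on the log2 scale (SE 0.0555, adjusted p = 2.31e-07, higher in 4 of 4 isolations). Ctrl cells rose by 0.80 (SE 0.0770), between 0.75 and 0.84 in the 4 isolations, and KO cells by 0.39 (SE 0.0800), with 0.45, 0.51, 0.35 and 0.08. The KO response was thus 48.2% of the Ctrl response, and nearly absent in isolation 4, where the counts were 87 in PBS and 83 after ligand. In PBS the difference was −0.04 (SE 0.0819, 95% interval −0.21 to 0.13, adjusted p = 0.971), with 2 isolations higher and 2 lower. After ligand it was −0.45 (SE 0.0751), so that 8.63% of it was there in PBS. The PBS interval spans 0, so this share is not ranked against those of the other genes. The difference of responses was −0.42 (SE 0.111), negative in 4 of 4 isolations.

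Among 17 other tested carbohydrate sulfotransferases, 3 rose and 3 fell in the average response, and none passed between genotypes in PBS or after ligand. Hs3st3b1, which modifies heparan sulfate, rose by 1.00 (SE 0.124, adjusted p = 8.32e-06) and Hs6st1, a heparan sulfate sulfotransferase, by 0.27 (SE 0.0447, adjusted p = 0.000234), and Hs3st1, another one, fell by 0.58 (SE 0.0653, adjusted p = 2.85e-06). The close relatives Chst1 and Chst7 had average responses of 0.01 (SE 0.0321) and −0.07 (SE 0.0734) that did not pass, and Chst4 and Chst5 did not reach the filter.

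Ahdc1 encodes a nuclear protein with AT-hook motifs, which bind AT-rich DNA (ENSMUSG00000037692, chr4:132738571-132805421, plus strand, 7 exons). Ctrl cells had 30.9, 24.2, 45.8 and 37.1 CPM in PBS and 47.4, 32.6, 60.9 and 52.9 CPM after ligand, and KO cells had 30.3, 22.2, 44.4 and 34.3 CPM in PBS and 33.8, 27.4, 52.0 and 44.1 CPM after ligand. The gene rose in every isolation of both genotypes, by the smallest step in KO cells of isolation 1.

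The average rise of Ahdc1 was 0.38 (SE 0.0367, adjusted p = 3.84e-07, higher in 4 of 4 isolations). It was 0.49 (SE 0.0512) in Ctrl and 0.26 (SE 0.0525) in KO cells, a KO response of 53.6% of the Ctrl response. The PBS difference was −0.08 (SE 0.0529, 95% interval −0.19 to 0.03, adjusted p = 0.838), negative in 4 of 4 isolations, and the difference after ligand was −0.30 (SE 0.0508), of which 25.1% was there in PBS. The difference of responses was −0.23 (SE 0.0734), negative in 4 of 4 isolations, with −0.46 in isolation 1 and −0.12 to −0.18 in the other 3. Of 15 other tested AT-hook genes, Prr12 rose by 0.13 (SE 0.0346, adjusted p = 0.0178) and Akna fell by 0.37 (SE 0.0601, adjusted p = 0.000181) in the average response, and none passed between genotypes in PBS or after ligand.

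**Figure D3:**
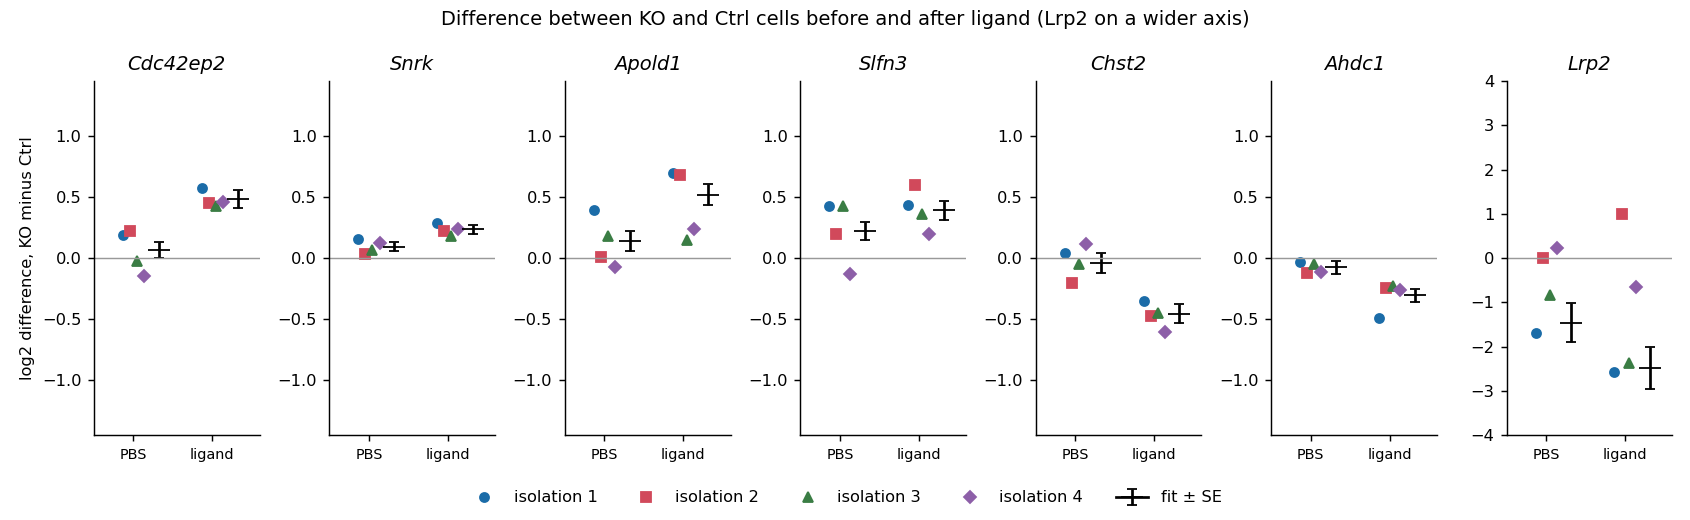
Log2 difference between KO and Ctrl cells in PBS and after ligand for each gene; coloured points are the 4 isolations (prior count 2) and black bars the fitted value ± SE, with a wider axis for Lrp2, whose points for isolations 2, 3 and 4 rest on 0 to 9 counts. The fitted values move from near 0 in PBS (0.07 for Cdc42ep2, −0.04 for Chst2) to 0.48 and −0.45 after ligand, while Slfn3 starts at 0.22.

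The KO response was the weaker of the pair for all 6 genes, from 24.0% of the Ctrl response for Apold1 to 65.1% for Snrk, with Slfn3 at 63.0%. This lean was common among the ligand-responsive genes. Of the 1168 other genes that rose in the average response, 933 (79.9%) had a smaller rise in KO than in Ctrl cells, with a median KO response of 78.6% of the Ctrl response. Of the 882 other genes that fell, 684 (77.6%) fell less in KO cells, with a median of 73.8%. The 6 genes all lay below those medians, which their choice favours, since a gene with a weaker KO response differs more after ligand. Over all genes, the difference of ligand responses passed for 0 of 15693 genes in edgeR (0%; 565 at an unadjusted p under 0.05) and for 0 genes in DESeq2, but for 14 with quantile normalisation, ComBat and DESeq2 and for 52 with no filter on low counts. All 13 direct BMP target genes rose in the average response, with a median of 2.51 in Ctrl and 2.55 in KO cells. The difference of responses was positive for 5 of the 13 (median −0.02), and 2 of them passed as lower in KO cells after ligand, Hey1 by a difference of −0.73 and Nog by −1.48.

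**Figure D4:**
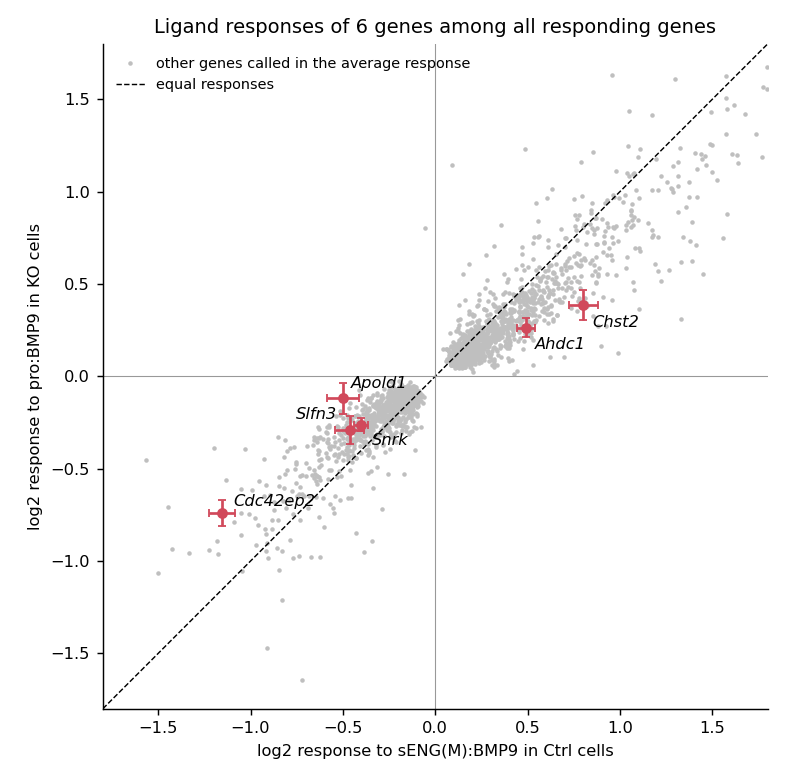
Log2 response to pro:BMP9 in KO cells against the log2 response to sENG(M):BMP9 in Ctrl cells, for the 6 genes that passed in the average response (red, ± SE) and 2003 other genes that passed (grey); 47 further genes lie outside the axes, which end at 1.8, and the dashed line marks equal responses. Chst2 and Ahdc1 lie below the line at upper right, and Cdc42ep2, Snrk, Slfn3 and Apold1 above it at lower left.

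Lrp2, or megalin, is a large endocytic receptor of the LDL receptor family, best known from absorptive epithelia (ENSMUSG00000027070, chr2:69254684-69416409, minus strand, 79 exons). It was the lowest of the 7 genes, at 0.0914 CPM per kb against 1.98 for Chst2, 4.59 for Ahdc1, 9.0 for Cdc42ep2, 16.6 for Slfn3, 17.1 for Apold1 and 45.0 for Snrk, as means of the 16 libraries. The SD over libraries was 0.184 for Lrp2, 1.10 for Chst2, 1.33 for Ahdc1, 3.21 for Cdc42ep2, 4.13 for Slfn3, 13.6 for Apold1 and 12.1 for Snrk. Apold1 and Slfn3 are therefore neighbours that do not differ beyond their spread.

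Most reads of Lrp2 came from 1 isolation. Isolation 1 had 134 counts in Ctrl PBS, 163 in Ctrl after ligand, 41 in KO PBS and 22 in KO after ligand. Isolation 2 had 0, 0, 0 and 2 counts in the same order, isolation 3 had 7, 9, 3 and 0, and isolation 4 had 3, 3, 4 and 1. In isolation 1 both KO libraries were below both Ctrl libraries, before as well as after ligand. In isolations 2 and 4 every library was at 4 counts or fewer, so that a difference was not detectable there at this depth, and in isolation 3 the Ctrl libraries were slightly higher.

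The fitted KO minus Ctrl value of Lrp2 was −1.46 in PBS (SE 0.434, 95% interval −2.37 to −0.55, adjusted p = 0.423) and −2.48 after ligand (SE 0.473), so 58.9% of the difference after ligand was there in PBS. The response was 0.16 (SE 0.370) in Ctrl and −0.86 (SE 0.540) in KO cells, the average response was −0.35 (SE 0.327, 95% interval −1.04 to 0.34, adjusted p = 0.623), and the difference of responses was −1.02 (SE 0.654). Without isolation 1 the gene did not reach the filter, and with no filter its PBS value was −0.41 (SE 1.11, adjusted p = 1) and its value after ligand −1.41 (SE 1.26). These values thus describe 1 line.

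Mesothelial markers were also lower in KO cells of that line. In isolation 1 the 6 mesothelial markers summed to 530 CPM in Ctrl PBS and 540 CPM in Ctrl after ligand, against 345 and 343 CPM in KO cells, and 6 of 6 were lower in KO cells in both conditions. Lrp2 had 41 counts in KO PBS and 22 in KO after ligand. The sum was 12.2 to 15 CPM in isolation 2, 269 to 304 CPM in isolation 3 and 48.7 to 58.4 CPM in isolation 4, without a like difference. In isolation 3 Lrp2 had 0 to 9 counts. Fibroblast and mural markers of isolation 1 summed to 816 and 825 CPM in Ctrl and 608 and 639 CPM in KO cells. The part of the mesothelial, fibroblast and mural markers in the Lrp2 difference was not tested.

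The other LDL receptor genes and partners of megalin were better covered. Of 17 tested, 4 rose and 1 fell in the average response, and none passed between genotypes in PBS or after ligand. Lrp4 rose by 0.64 (SE 0.118, adjusted p = 0.000669) and Lrp3 by 0.31 (SE 0.0737, adjusted p = 0.00717), and Dab2, the clathrin adaptor of megalin, fell by 0.19 (SE 0.0278, adjusted p = 7.61e-05). Lrp1, the closest large relative, stood at 34.2 CPM per kb with KO minus Ctrl values of −0.08 in PBS (SE 0.107) and −0.08 after ligand (SE 0.108). Lrp8 was lower in KO cells of 4 of 4 isolations both times without passing, at −0.43 in PBS (SE 0.112, adjusted p = 0.393) and −0.51 after ligand (SE 0.110, adjusted p = 0.0573).

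The genes with the most similar pattern were found by Pearson correlation of log2 CPM over the 16 libraries after the mean of each isolation was removed, so that the points share isolations and treatments. For Cdc42ep2 they were Klf11 (r = 0.983), Bbc3 (r = 0.981) and Adm (r = 0.980), and for Snrk they were Sh2d3c (r = 0.986), Txnip (r = 0.978) and Ets2 (r = 0.968). For Apold1 they were Spry4 (r = 0.948), S1pr1 (r = 0.929) and Map3k6 (r = 0.928), and for Slfn3 the interferon-induced GTPases Tgtp1 (r = 0.972) and Gbp9 (r = 0.966) and the antiviral enzyme Rsad2 (r = 0.953). Chst2 was followed by Zswim6 (r = 0.963), Bcl9l (r = 0.962) and Zbtb1 (r = 0.959), and Ahdc1 by Bmpr2 (r = 0.958), a type II receptor for BMPs, Bcl9l (r = 0.957) and Rhoq (r = 0.957). For Lrp2 the highest value was 0.858, and with counts of 9 or fewer in 12 of 16 libraries it is no finding.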

How the data were processed

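Poly-A RNA of 16 MLEC libraries was sequenced with a directional kit. The authors deposited raw read counts per gene in 1 table. The submitters' processing notes name HISAT2 2.0.5, featureCounts 1.5.0-p3, DESeq2 1.26.0 and GRCm39, and per the study's methods quantile normalisation and ComBat preceded its tests, which are not part of the deposited counts. The annotation release and the strand setting of the counting are not given in the sources used here.

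Counts were analysed in R 4.3.3 with edgeR 4.0.16 (TMM, filterByExpr with a minimum count of 10 and a minimum total of 15, glmQLFit, glmQLFTest) over all 16 libraries, with the isolation as a block and Benjamini-Hochberg adjustment over 15693 genes. An adjusted p under 0.05 was called passed. CPM used TMM-scaled totals, and CPM per kb the deposited gene length. SE is the log2 change divided by the root of F, log2 values per isolation carry a prior count of 2, and percentages of one log2 value in another are ratios of fitted values. Library totals were 14869115 to 17242117, at which 3 counts are about 0.2 CPM.

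The labels give a replicate number, shared by the 4 groups, and do not name the isolation. The number was read as the isolation because the study's methods describe 4 independent isolations, each with Ctrl and KO cells. Same-numbered libraries deviated together from their group means in every pair (mean r = 0.757, lowest 0.670, 24 pairs), against a mean of −0.251 for 72 other pairs, so the block was used. Libraries of a group differed by more than sampling noise (lowest chi-square per degree of freedom 10.9), so none was counted as a duplicate. An isolation is 1 line. The block removes the spread of levels between isolations. The p-values, SEs and intervals rest on the spread left after that, pooled over all 4 groups and moderated across genes. They do not measure how 1 difference varies over its 4 isolations, and can be narrower than those 4 values alone would give.

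The members and gene lists were chosen with earlier results of these data known. For the members, the comparison that chose them, the response in each genotype and the difference of responses carry no test. The average response was tested although it shares the ligand libraries, with the limit given above. Named besides the members are Eng, cell type markers at 0 CPM or passing between genotypes, list genes that passed (at most 4 per list and comparison), close relatives, and the 3 genes nearest in pattern. A list gene that this rule names is not reported here. The list of immediate early genes was also computed: of 21, 5 rose and 8 fell in the average response, 0 passed in PBS and 1, Dusp1, passed after ligand (0.23). The interferon list held 30 genes, of which Rigi was not listed under that symbol. Leukocyte markers summed to 37.9 to 54.3 CPM and lymphatic markers to 3586 to 7396 CPM per library. Promoter windows were read from GRCm39 before the outermost GENCODE start. The fitting code was tested on simulated data. Alternatives were no block, DESeq2 1.42.0, RLE size factors, other filters, only the compared libraries, quantile normalisation with ComBat (sva 3.50.0) and DESeq2, each isolation left out, and, chosen after seeing the Lrp2 counts, isolation 1 left out with no filter.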

Additional observations from a re-analysis of the deposited data

Results flagged for a closer look

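Of 28 sets of 4 libraries (7 genes in 4 groups), 4 held a library far from its group by Dixon's criterion, where chance alone gives about 1 in 20. All 4 were Lrp2 in isolation 1: 8.71 CPM in Ctrl PBS, 9.68 CPM in Ctrl after ligand, 2.60 CPM in KO PBS and 1.52 CPM in KO after ligand, against at most 0.523 CPM in any other library. Mesothelial markers were also highest in that isolation, and their part was not tested.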

How the results depend on the processing

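No fold change of the 7 genes that was called changed sign under any alternative, and 135 of 144 tested values kept their call. The 294 values with no test moved by less than the SD of the isolations. That limit is loose, since a mean moves by less than this SD when 1 isolation is left out, so it cannot show stability. For Lrp2 after ligand the SD was 1.68, and the values ran from −2.68 to −1.34. The exceptions in the average response were the fits with no replicate block, where Cdc42ep2 alone kept its call (adjusted p = 1.05e-05; 1 of the 7 genes instead of 6) and Slfn3, Ahdc1, Snrk, Chst2 and Apold1 had adjusted p of 0.343, 0.674, 0.83, 0.955 and 1.00. All other alternatives, leaving out each isolation included, kept 6 calls. In PBS, 0 of the 7 genes were called except 2 with no filter on low counts (Lrp2 at −1.47, adjusted p = 0.00379, and Slfn3 at 0.22, adjusted p = 0.0177), 1 with quantile normalisation, ComBat and DESeq2 (Slfn3, 0.25, adjusted p = 0.0165) and 0 to 1 with an isolation left out (Slfn3 without isolation 4). The small PBS value of Chst2 ran from −0.07 to 0.03.

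Over all genes, the 3 calls in PBS became 1 with no block, 7 with DESeq2, 204 with no filter, 1 with only the compared libraries, 165 with quantile normalisation and ComBat, and 1 to 69 with an isolation left out (1 without isolation 3, 69 without isolation 4). The 2056 calls in the average response became 372 with no block, and 1490 to 1865 with an isolation left out. The 1521 in Ctrl cells became 167 and the 878 in KO cells 91 with no block. Those in KO cells were 1344 with quantile normalisation and ComBat and 573 to 745 with an isolation left out, and those in Ctrl cells 1058 to 1392. The 40 after ligand became 1 with no block, 138 with DESeq2, 517 with no filter, 531 with quantile normalisation and ComBat, and 6 to 175 with an isolation left out (6 without isolation 1, 15 without isolation 2, 16 without isolation 3, 175 without isolation 4). For the difference of responses, 52 genes were called with no filter, 14 with quantile normalisation and ComBat, and 0 otherwise. The cause was not tested. Lrp2 gave no value without isolation 1 or with at least 10 counts in every library, and the average and the difference of responses have no fit on fewer libraries.

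With 4 isolations, 1 time and 1 dose, and with ligand form tied to genotype, the differences of responses carry standard errors of 0.0508 to 0.654. Depth limits Lrp2, where 12 of 16 libraries held 9 counts or fewer. The deposited counts do not show whether changes of this size alter protein levels.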
